A study of Mus musculus with 12 samples.

Results

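Ovaries of mice that lacked dietary vitamin D early in life were compared with ovaries of mice that lacked it around puberty. The comparison holds 8 of the 12 samples of the series, which are those whose titles place them in the early-life group (4 samples) or in the peripubertal group (4 samples), and no measured value was used to choose them. All animals were C57BL/6J females, a common inbred strain, and were 2 months old at sampling. The early-life group received a VD-deficient (vitamin D-deficient) diet in that window alone, the peripubertal group received it in that stage alone, and another group of 4 samples on a normal diet served as the control. The series' design states that the females of a group are biological replicates, so each value below stands for 1 ovary RNA sample of 1 diet group. The question the comparison addresses is how the transcriptome of the adult ovary differs with the window in which the diet was deficient.

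The RNA was labelled with Cy3 (odd replicates) or Cy5 (even replicates) and hybridised in pairs of the same diet group, so this comparison rests on 4 of the 6 arrays. The peripubertal arrays lay on one slide and the early-life arrays on another, which also held the control arrays, so in this comparison slide and diet window cannot be told apart. The median signal of a sample was 6.85 to 9.49 times its median local background, and 58.4% to 64.7% of spots were well above background. In the deposited value table, each of the 8 columns named for control or early-life samples matched the scanner values of an array named for the other of these groups (correlations of 0.99977 to 0.99982 over probes). The scanner files' naming is used here. Which naming is right is not settled, so the difference that the other naming gives, control-named arrays minus peripubertal arrays, is printed beside the main results. It uses the same peripubertal samples and the same pair of slides, so a slide difference would enter it as well. In whole ovaries, fewer cells of a type and less RNA per cell cannot be told apart.

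Vitamin D is turned into its active hormone by hydroxylation in liver and kidney, and the hormone acts through the vitamin D receptor, a nuclear receptor that binds DNA together with retinoid X receptors. In the ovary the receptor is found in granulosa cells among others, and the hormone is known to act on steroid synthesis there. The adult ovary also holds a large resident population of macrophages, which take up the debris of atretic follicles and regressing corpora lutea, and a dense vascular bed that is rebuilt in each cycle. Mouse ovaries lie next to the coiled oviduct, whose epithelium consists of secretory and ciliated cells.

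Levels are normalized log2 intensities and differences are log2 values of early-life minus peripubertal, each with the standard error (SE) of a limma model over the 12 samples. A gene passed when its Benjamini-Hochberg adjusted p was under 0.05. Of 18597 genes tested, 502 passed (2.7%), and 4452 had an unadjusted p under 0.05. A list below with a similar share at an unadjusted p does not stand out by that count. The passing genes were mostly lower after early-life deficiency, with 397 genes lower (2.13%) and 105 higher (0.565%). The median difference was -0.55 among the genes that fell, 0.70 among those that rose and -0.03 over all genes tested. More than 2-fold differences were found for 60 genes that fell and 24 that rose. In 494 of the 502 genes all values of one group lay on one side of all values of the other, which was the case in 20.7% of all genes tested. The mean of the control samples lay between the means of both deficiency groups in 461 of the 502. These genes were selected for a wide gap between those groups, which makes a position inside it likely. The share over all genes was not counted, so this count does not place the control diet between the windows.

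The number of genes that passed depended on single samples. Without early-life replicate 1 it was 2, and without early-life replicate 3 it was 3, while without early-life replicate 2 it was 1588. Leaving out peripubertal replicates 1, 2, 3 and 4 gave 43, 93, 278 and 188 genes, and leaving out early-life replicate 4 gave 165. A fit on the 8 samples alone, with no control samples to share the estimate of the spread, passed 9 genes, and the other naming of the arrays passed 49 (0.263% of those tested). Of the 85 passing genes named below, all 85 passed without early-life replicate 2, and 2 passed without early-life replicate 1. All 85 kept their direction when any 1 sample was left out. They were selected as passing genes, which makes a kept direction likely, so this is not a separate result.

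The 30 genes with the largest changes were picked among those whose groups do not overlap. The genes that rose most fall into a set that varied widely among the early-life samples and a set that did not. Wfdc2, a secreted protease inhibitor-like protein of reproductive tract epithelium, was higher by 4.50 ± 1.00 (adjusted p = 0.048, limma). Its values were 14.08, 11.08, 12.97 and 14.68 in early-life replicates 1 to 4 and 8.77, 8.85, 8.34 and 8.83 in peripubertal replicates 1 to 4. Replicate 2 was the lowest of the early-life samples. Wfdc15b, of the same gene family, was not well above background in any peripubertal sample and measured 11.97, 9.20, 10.80 and 12.12 in the early-life samples. It was at least 21.35-fold higher there (adjusted p = 0.0498, limma), a bound that takes for each peripubertal sample the higher of its background level and the probe's own signal, here its own signal in all 4. Cbs, the enzyme that condenses homocysteine with serine, was higher by 3.45 ± 0.75 (adjusted p = 0.0442, limma), and Pdzk1ip1, a small epithelial membrane protein, by 3.38 ± 0.71 (adjusted p = 0.0421, limma). Early-life replicate 2 was again the lowest sample of its group in these 3 genes, at 9.20 for Wfdc15b, 12.66 for Cbs and 8.99 for Pdzk1ip1.

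The second set rose by less and with little spread. Snd1, a nuclease and transcriptional co-activator that is part of RNA granules, measured 11.84, 11.91, 12.15 and 12.13 in the early-life samples and 10.54, 10.23, 10.19 and 10.01 in the peripubertal samples. The gap between the groups was wide relative to their spread, and the difference of 1.77 ± 0.14 had the lowest adjusted p of the comparison (0.00123, limma). The control samples, which share the early-life slide, lay with the early-life samples, at 11.97, 11.63, 11.66 and 11.68. Paip1, which binds poly(A)-binding protein in translation initiation, measured 10.80, 11.03, 11.06 and 10.92 against 9.34, 10.07, 9.25 and 9.45, a difference of 1.43 ± 0.19 (adjusted p = 0.0235, limma). Prrc2c, an RNA-binding protein of stress granules, measured 10.21, 10.21, 10.06 and 10.29 against 9.18, 9.14, 9.25 and 9.17, a difference of 1.01 ± 0.11 (adjusted p = 0.0195, limma). The values of both genes varied little within a group, but Paip1 had another probe, which differed by -0.21 ± 0.10 (unadjusted p = 0.0568, limma), with the opposite sign. Under the other naming of the arrays, Snd1, Paip1 and Prrc2c still passed, with differences of 1.49, 1.23 and 0.71 (adjusted p = 0.0122, 0.0446 and 0.0446, limma). They were the only ones of the 15 named rises that did, and the arrays of both namings lie on the same slide, apart from the peripubertal one.

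The other 8 named rises were between 1.01 and 1.68. Tmc7, a transmembrane channel-like protein, was not well above background in any peripubertal sample and was at least 3.16-fold higher after early-life deficiency (adjusted p = 0.025, limma). Only 1 control sample was well above background, so the filter on dim probes kept Tmc7 through the early-life samples. A gene kept in that way can only rise. Gulo, the last enzyme of vitamin C synthesis in rodents, measured 11.43, 11.52, 11.21 and 11.96 against 9.75, 9.93, 9.74 and 10.50, a difference of 1.55 ± 0.29 (adjusted p = 0.0353, limma). Fbn2, the microfibril protein fibrillin-2, measured 11.19, 12.39, 11.98 and 11.85 against 10.11, 10.27, 10.25 and 10.63, a difference of 1.54 ± 0.28 (adjusted p = 0.0332, limma). In both genes at least 1 control sample lay within or below the peripubertal range. Chmp4b, a subunit of the ESCRT-III membrane-cutting complex, rose by 1.22 ± 0.23 on its brightest probe and differed by 0.27 and 0.18 on its other probes, and Rgs6, a brake on G-protein signalling, by 1.13 ± 0.26. For Rgs6 the other naming gave -0.12, with the sign turned. Rgs6 was well above background in 4 early-life, 2 peripubertal and 1 control samples, so the filter kept it only with the early-life samples. Prr7, Efcab6 and Tex26 rose by 1.05, 1.03 and 1.01, with adjusted p of 0.0413, 0.0461 and 0.0476 in limma.

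The genes that fell most were led by transcripts that were near background in the early-life samples. Vmn2r28, a vomeronasal pheromone receptor gene, was not well above background in any early-life sample and measured 10.33, 9.34, 10.88 and 9.54 in the peripubertal samples. It was at least 15.2-fold lower after early-life deficiency (adjusted p = 0.0088, limma). The control samples, on the same slide as the early-life ones, lay near them, at 6.43, 6.42, 5.79 and 6.42. Svs3a, a seminal vesicle secretory protein gene, had the same arrangement, with 8.85, 8.15, 8.69 and 7.68 in the peripubertal samples and at least 4.35-fold less in the early-life samples (adjusted p = 0.025, limma). Both genes also passed under the other naming, with differences of -3.76 and -2.11 (adjusted p = 0.0161 and 0.0446, limma). Of 116 olfactory or vomeronasal receptor genes tested, a family whose members share sequence and can share a probe's signal, 13 fell (11.2%, against 2.13% of all genes) and 0 rose (against 0.565%). The filter on dim probes kept Vmn2r28 and Svs3a through the peripubertal samples alone, since no early-life or control sample was well above background. A gene kept in that way can only fall, and how many of the 13 were so kept was not analysed. Omp, the olfactory marker protein, fell by 1.93 ± 0.30 (adjusted p = 0.0254, limma).

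Evi2a, a membrane protein gene that lies within an intron of Nf1, measured 7.24, 7.09, 7.29 and 7.36 in the early-life samples and 8.73, 8.66, 8.96 and 8.99 in the peripubertal samples. The groups were far apart relative to their spread, and the difference of -1.59 ± 0.12 shared the lowest adjusted p of the comparison (0.00123, limma). The other naming gave -0.93 (adjusted p = 0.0268, limma). Slc11a1, the metal transporter of macrophage phagosomes, measured 6.78, 7.77, 7.94 and 8.01 against 10.67, 9.89, 9.37 and 9.44, a difference of -2.22 ± 0.48 (adjusted p = 0.0442, limma). Ms4a7, a tetraspan membrane protein of macrophages, measured 9.15, 8.90, 9.20 and 9.31 against 10.86, 11.19, 10.21 and 10.46, a difference of -1.54 ± 0.32 (adjusted p = 0.0402, limma). Pdcd1, the inhibitory T-cell receptor PD-1, measured 9.16, 8.43, 9.15 and 9.75 against 11.04, 11.03, 10.38 and 11.21, a difference of -1.79 ± 0.37 (adjusted p = 0.042, limma). The control values of Slc11a1, Ms4a7 and Pdcd1 overlapped the peripubertal ones. The fatty-acid hydroxylase gene Cyp4f14 fell by 2.03 ± 0.26 and the asialoglycoprotein receptor gene Asgr1 by 1.71 ± 0.36, and the monocarboxylate transporter family gene Slc16a9 differed by -1.60 ± 0.19 (adjusted p = 0.0195, 0.0426 and 0.0195, limma). Clec18a, Islr2, Sh3bgr, Bean1 and Rundc3a fell as well, with differences of -2.51, -2.06, -1.62, -1.58 and -1.55 and adjusted p between 0.0235 and 0.047 in limma. Bean1 had no value in early-life replicate 2, whose spot was set aside as an outlier.

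**Figure D1:**
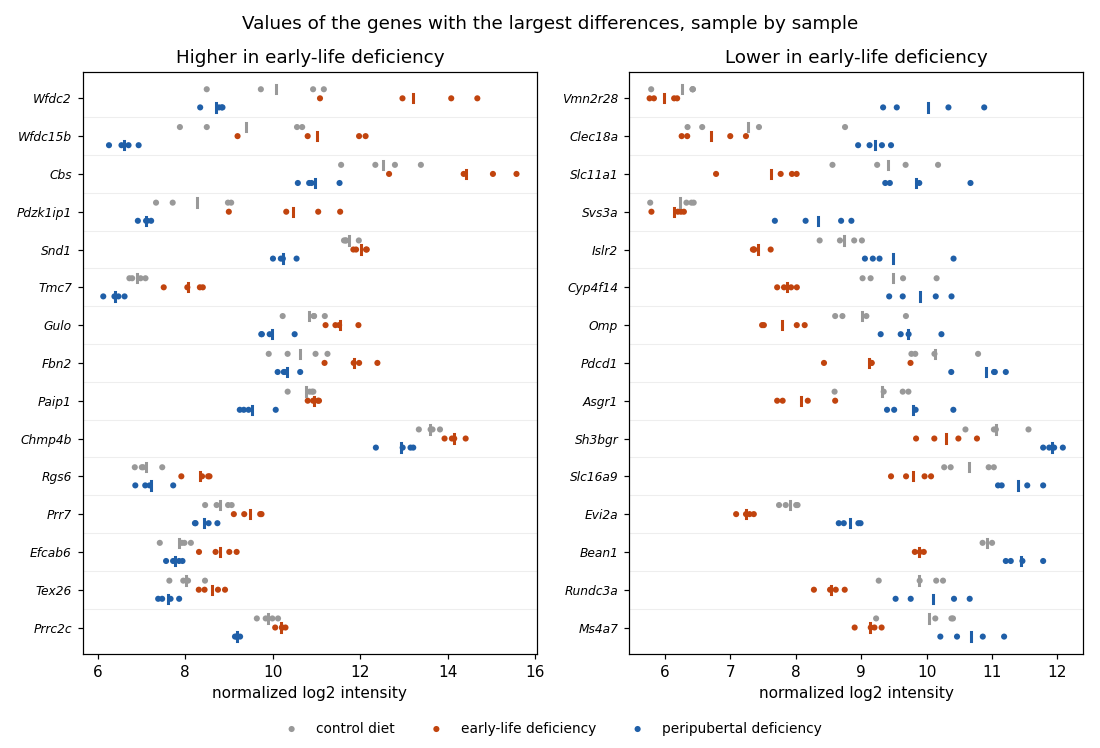
Normalized log2 intensity (horizontal axis) of the 15 genes that rose most (left) and the 15 that fell most (right) in early-life against peripubertal deficiency. Each point is 1 sample, each short bar a group mean, and control samples are drawn in grey; the genes were picked among those whose early-life and peripubertal points do not overlap, and the early-life points of Wfdc2 spread from 11.08 to 14.68 and those of Snd1 from 11.84 to 12.15.

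Macrophage markers were lower after early-life deficiency. Of 15 markers measured, 5 fell and 0 rose (33.3% passed, against 2.7% of all genes), and the median difference of the list was -1.06, against -0.03 over all genes. In 14 of the 15 the groups did not overlap, against 20.7% of all genes tested. C1qa and C1qb encode chains of the complement recognition protein C1q, which macrophages make. C1qa measured 10.68, 10.02, 10.32 and 10.36 in the early-life samples and 11.94, 11.94, 11.59 and 11.33 in the peripubertal samples, a difference of -1.36 ± 0.24 (adjusted p = 0.0313, limma). C1qb measured 9.81, 9.21, 9.65 and 9.67 against 11.28, 11.24, 10.90 and 10.64, a difference of -1.43 ± 0.26 (adjusted p = 0.0347, limma). The highest early-life sample stayed below the lowest peripubertal sample in both genes. Adgre1, which encodes the macrophage surface protein F4/80, measured 9.11, 8.77, 8.79 and 8.84 against 10.48, 10.20, 9.77 and 9.80, a difference of -1.19 ± 0.21 (adjusted p = 0.0313, limma). Mrc1, the mannose receptor of tissue-resident macrophages, fell by 1.06 ± 0.20 and Fcgr1, the high-affinity IgG receptor, by 0.85 ± 0.16 (adjusted p = 0.0366 for both, limma). Csf1r, the receptor for macrophage colony-stimulating factor, measured 11.59, 11.11, 11.18 and 11.28 against 12.62, 12.65, 11.96 and 12.05 and missed the threshold (difference -1.03 ± 0.27, adjusted p = 0.0677, limma). The exception in direction was Cd14, the lipopolysaccharide co-receptor, at 0.77 ± 0.59 (adjusted p = 0.446, limma), with overlapping groups.

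The mean of the 15 macrophage markers in a sample, relative to its mean over all 12 samples, was -0.30, -0.80, -0.54 and -0.37 in early-life replicates 1 to 4 and 0.59, 0.70, 0.20 and 0.20 in peripubertal replicates 1 to 4. The control samples ranged across both groups, at 0.53, 0.21, 0.11 and -0.48. Under the other naming the median difference of the list was -0.40 and none of the 5 markers passed, with their differences between -0.62 and -0.36. In the other settings run for the lists, leaving out any 1 sample included, the median lay between -1.31 and -0.94.

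Genes of MHC class II antigen presentation, by which macrophages, dendritic cells and B cells show peptides to helper T cells, were lower as well. Of 9 measured, 4 fell and 0 rose (44.4% passed, against 2.7% of all genes), with a median difference of -0.99 and all 9 differences negative. The alpha chain gene H2-Aa and the beta chain gene H2-Eb1 were among the 4. Their promoters are shown because class II genes share a short upstream module whose Y box is bound by the factor NF-Y, and the letters searched here are the Y box form CTGATTGG on either strand, with the match in capitals. The sequences are the 120 bases before each gene's start, 5′ to 3′ on the gene's strand, from RefSeq promoters of build GRCm38.p6: H2-Aa on the minus strand at chr17:34287824-34287943, and H2-Eb1 on the plus strand at chr17:34305747-34305866.
H2-Aa: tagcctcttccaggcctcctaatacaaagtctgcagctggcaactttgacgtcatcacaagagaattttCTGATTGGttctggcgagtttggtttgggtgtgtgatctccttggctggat
H2-Eb1: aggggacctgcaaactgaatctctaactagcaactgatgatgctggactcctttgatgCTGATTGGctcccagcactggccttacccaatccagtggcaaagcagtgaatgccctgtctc

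The match began 51 bases before the start in H2-Aa and 62 bases before it in H2-Eb1. Across 32851 RefSeq promoters of 300 bases, 4.1% held CTGATTGG on either strand. Of the 4 class II genes that fell, 3 had a promoter in the table and 2 of these held it.

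H2-Aa measured 10.13, 9.49, 10.01 and 9.84 in the early-life samples and 11.28, 11.33, 11.28 and 10.96 in the peripubertal samples, a difference of -1.34 ± 0.18 (adjusted p = 0.0235, limma). H2-Eb1 measured 12.77, 12.36, 12.87 and 12.71 against 14.20, 14.30, 13.72 and 13.73, a difference of -1.31 ± 0.25 (adjusted p = 0.0371, limma). Both genes had separate groups, and early-life replicate 2 was the lowest sample. The beta chain gene H2-Ab1 fell by 1.02 ± 0.18 (adjusted p = 0.0329, limma), and H2-DMa, part of the complex that loads peptides, by 0.94 ± 0.15 (adjusted p = 0.0254, limma). Cd74, the invariant chain that escorts class II molecules, and Ctss, the protease that trims it, also had no overlap between groups but missed the threshold, at -0.99 ± 0.24 and -1.37 ± 0.34 (adjusted p = 0.0566 and 0.0663, limma). The per-sample mean of the 9 genes was -0.24, -0.65, -0.35 and -0.36 in the early-life samples and 0.51, 0.72, 0.41 and 0.42 in the peripubertal samples. The control samples again reached into both groups, from -0.52 to 0.46. Under the other naming the median difference was -0.61 and none of the 4 passed.

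Other genes of blood-derived cells fell. The chemokine receptor genes Ccr2 and Cx3cr1, which guide monocytes and macrophages, were among them. Cx3cr1, the fractalkine receptor, measured 8.82, 8.59, 8.84 and 9.30 against 10.41, 10.23, 9.94 and 10.17, a difference of -1.30 ± 0.23 (adjusted p = 0.0313, limma), with no overlap. Ccr2 fell by 0.76 ± 0.16 (adjusted p = 0.0426, limma). Of 5 mast cell markers, 2 fell: the chymase gene Cma1, by 0.93 ± 0.18, and the mast cell carboxypeptidase gene Cpa3, by 1.22 ± 0.25 (adjusted p = 0.0361 and 0.0405, limma). Of 11 lymphocyte markers, 1 fell: the leukocyte surface phosphatase gene Ptprc (CD45), by 0.69 ± 0.12 (adjusted p = 0.0274, limma). Of 15 complement genes, the 2 that fell were C1qa and C1qb. These shares of 40.0%, 9.09% and 13.3% rest on 1 or 2 genes each, and 2.7% of all genes passed. Differences were positive in 1 of the 5 mast cell markers, 3 of the 11 lymphocyte markers and 5 of the 15 complement genes. From the genes that passed and fell, 10 genes of leukocytes, mostly myeloid, were chosen after their values were seen, with differences of -1.54 to -0.50. Their shared direction follows from that choice, and how many such genes were tested was not counted. Ms4a7 is one of them. The others are Cd72, Csf2rb (a shared subunit of receptors for GM-CSF and related cytokines), the IgG receptor gene Fcgr4, the co-stimulatory ligand gene Cd86, Il10ra, the phagocyte oxidase gene Cybb, Hcls1, Spic (a transcription factor of red pulp macrophages) and the inhibitory receptor gene Lair1. Gata1, a transcription factor of mast and red cells chosen in the same way, fell by 1.25 ± 0.28 (adjusted p = 0.0485, limma).

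Genes of the interferon response formed a milder group. Of 24 measured, 4 fell and 0 rose (16.7% passed, against 2.7% of all genes), the median difference was -0.55, and 21 of 24 differences were negative. Ddx58, which encodes the viral RNA sensor RIG-I, measured 10.74, 10.55, 10.52 and 10.61 in the early-life samples and 11.49, 11.21, 11.25 and 11.20 in the peripubertal samples, a difference of -0.68 ± 0.11 (adjusted p = 0.0254, limma). Gbp3, an interferon-induced guanylate-binding GTPase, measured 10.11, 9.88, 9.81 and 10.11 against 11.27, 10.86, 10.81 and 11.04, a difference of -1.02 ± 0.18 (adjusted p = 0.0313, limma). Neither gene had overlapping groups, and the control samples lay closer to the peripubertal ones in both. Irf9, the DNA-binding subunit of the interferon-activated complex ISGF3, fell by 0.66 ± 0.14 and Ifit2 by 0.51 ± 0.11 (adjusted p = 0.0459 for both, limma). Isg15, a ubiquitin-like protein induced by interferon, missed the threshold at -0.93 ± 0.32 (adjusted p = 0.134, limma). Chosen after their values were seen, Trim30a, Ifi203 and Batf2 fell, with differences of -0.88, -1.16 and -0.67. Other probes gave smaller differences, -0.41 and -0.13 for Ifi203 and -0.30 for Ddx58. The list median was 0.06 under the other naming, where none of the 4 passed.

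The Gbp3 promoter is shown as the one of these with a match upstream of its start to a simplified interferon-stimulated response element, searched on both strands as the letters GAAA repeated after a gap of 2 bases. The 120 bases before the start lie on the plus strand at chr3:142559924-142560043 of GRCm38.p6 (RefSeq), and the capitals mark 2 overlapping matches, both on the opposite strand, that begin 45 and 39 bases before the start.
Gbp3: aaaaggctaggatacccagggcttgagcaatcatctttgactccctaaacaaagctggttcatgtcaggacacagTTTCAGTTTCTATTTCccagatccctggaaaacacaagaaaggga

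Of the 32851 promoters, 3.44% held this repeat on either strand, and 2 of the 4 interferon genes that fell did within the 300 bases, Ddx58 just after its start.

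Some genes of blood vessels were also among those that fell. Of 14 endothelial markers, 2 fell and 0 rose (14.3% passed, against 2.7% of all genes, list median -0.34). Differences were negative in 11 and positive in 3, which were Pecam1 (0.07), Kdr (0.08) and Sox17 (1.49, adjusted p = 0.24, limma). Cdh5, the endothelial cadherin gene, differed by -0.23 ± 0.20 (adjusted p = 0.533, limma). Emcn, the endothelial sialomucin endomucin, measured 9.75, 10.04, 9.88 and 9.42 against 10.38, 10.72, 10.70 and 10.48, a difference of -0.80 ± 0.17 (adjusted p = 0.044, limma). Ptprb, the vascular endothelial phosphatase VE-PTP, measured 11.32, 11.42, 11.34 and 11.40 in the early-life samples and 11.83 to 12.18 in the peripubertal samples, a difference of -0.68 ± 0.12 (adjusted p = 0.0368, limma). Each early-life value lay below each peripubertal value in Emcn and Ptprb. Ptprb also passed under the other naming (-1.21, adjusted p = 0.0332, limma), where 2 of the 4 samples had no value. Nrp1, a co-receptor for VEGF and semaphorins, was the 1 of 21 angiogenesis genes that passed (4.76%), with a fall of 0.69 ± 0.15 (adjusted p = 0.0449, limma). Robo4, Ramp2, Adgrl4 and Acvrl1, 4 more genes of endothelial cells that were chosen after their values were seen, fell, with differences of -0.79, -0.65, -0.53 and -0.92.

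**Figure D2:**
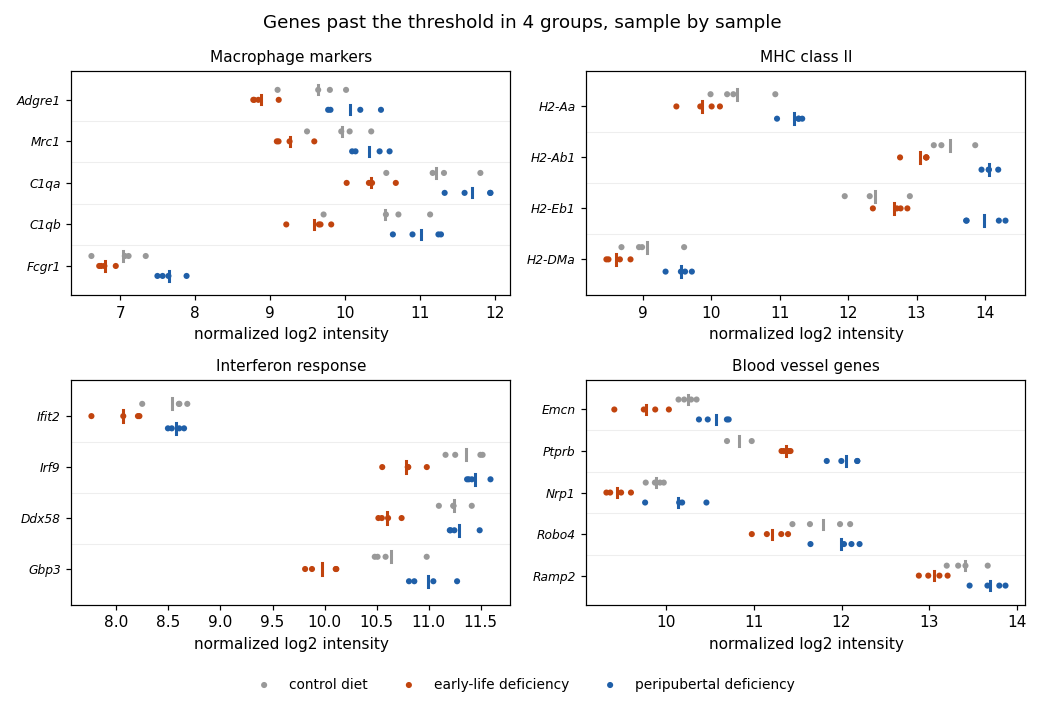
Normalized log2 intensity (horizontal axes) of passing genes from the macrophage, MHC class II and interferon lists and of 5 blood vessel genes. Each point is 1 sample and each short bar a group mean; in every gene drawn the early-life points lie below all peripubertal points, and the control points overlap one or both groups in most of them, as for C1qa with control values from 10.55 to 11.80.

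Matrix and growth factor genes gave few passing members. Each list named here rests on 1 or 2 such genes, and 2.7% of all genes passed. Of 16 matrix proteases and inhibitors, 2 fell: the gelatinase gene Mmp2, by 1.28 ± 0.29, and the matrix-bound inhibitor gene Timp3, by 0.91 ± 0.19 (adjusted p = 0.0496 and 0.0426, limma). Sod3, the extracellular superoxide dismutase, chosen after its values were seen, fell by 1.47 ± 0.23 with values in only 2 of the 4 peripubertal samples (adjusted p = 0.0313, limma). In the insulin and IGF axis, 1 of 20 genes rose and 1 fell. Igf2r, the receptor that clears IGF2, rose by 0.51 ± 0.10 and Igfbp7, an IGF-binding protein of vessel walls, fell by 1.08 ± 0.20 (adjusted p = 0.04 and 0.0353, limma). In the WNT pathway, 1 of 24 rose and 1 fell. Dvl3, which relays the signal from Frizzled receptors, measured 10.66, 10.63, 10.90 and 10.68 against 9.66, 9.71, 9.96 and 9.66, a difference of 0.97 ± 0.14 (adjusted p = 0.0235, limma). The control samples, on the early-life slide, had a mean above the early-life mean, and the other naming gave 1.23 (adjusted p = 0.0161, limma). The co-receptor gene Lrp5 fell by 0.46 ± 0.09 (adjusted p = 0.0399, limma). Of 21 apoptosis genes, 2 fell: the BH3-only gene Pmaip1, by 0.55 ± 0.10, and Birc2, an inhibitor of apoptosis, by 0.49 ± 0.11 (adjusted p = 0.0347 and 0.0459, limma). Pmaip1 was also the 1 of 14 p53 targets that passed.

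Among genes that rose, several have roles in protein folding, translation and DNA copying, and those named here were chosen after their values were seen. The secretory-pathway genes Hyou1, Pdia5 and Txndc5 and the stress sensor gene Atf6b rose by 0.40 to 0.80. Of the 16 genes on the endoplasmic reticulum stress list 0 passed and 4 had an unadjusted p under 0.05 in limma, and the list median was 0.22. Of all 18597 genes tested, 4452 had such a p. Eif4g1, the scaffold of the cap-binding complex, rose by 1.07 ± 0.14 with values in 2 of the 4 peripubertal samples (adjusted p = 0.025, limma). Aspm, a spindle pole protein, Fanca, a Fanconi anaemia repair protein, and Rfc2, a clamp loader subunit, rose by 0.84, 0.66 and 0.60. Pdia5 lacked the value of peripubertal replicate 4, and Fanca those of replicates 3 and 4. On the cell cycle list (28 genes) and the DNA repair list (20 genes) 0 passed, and 2 and 3 genes had an unadjusted p under 0.05 in limma.

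Markers of oviduct epithelium had the largest median difference, 2.72, of the 47 gene lists examined (pathways, processes and cell type markers). Of 11 measured, 1 rose (Wfdc2) and 0 fell, and all 11 differences were positive. Ovgp1, the oviduct-specific glycoprotein, measured 17.82, 11.59, 15.45 and 17.54 in early-life replicates 1 to 4 and 9.06, 8.56 and 9.16 in peripubertal replicates 1, 3 and 4. These groups overlapped, since peripubertal replicate 2 lay above early-life replicate 2, and the difference of 5.90 ± 2.30 missed the threshold (adjusted p = 0.175, limma). Elf3, an epithelial transcription factor, and Pax8, a marker of oviduct secretory cells, were at 2.74 ± 0.65 and 2.82 ± 0.93 (adjusted p = 0.0527 and 0.117, limma). Of 19 motile cilia genes, 0 passed (13 had an unadjusted p under 0.05 in limma, as did 4452 of all 18597 genes) and 18 differences were positive, with a list median of 2.00. Foxj1, the master regulator of motile cilia, differed by 4.41 ± 1.54 (adjusted p = 0.133, limma). Fat cell markers had a median of 1.02 over 15 genes with 0 passing (1 at an unadjusted p under 0.05), and Adipoq (adiponectin) differed by 1.39 ± 0.93 (adjusted p = 0.388, limma).

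The mean of the oviduct markers was 2.17, -0.65, 1.33 and 2.46 in early-life replicates 1 to 4 and -1.19, -0.97, -1.39 and -1.07 in peripubertal replicates 1 to 4. It was high in 3 of the 4 early-life samples and in none of the peripubertal ones, and the control samples were at 0.66, -0.98, -1.03 and 0.69. The macrophage and class II means were lowest in early-life replicate 2, the sample of its group with the lowest oviduct mean. With the oviduct mean as a covariate 0 genes passed in limma (2763 had an unadjusted p under 0.05), and the median difference was -1.11 for the macrophage list, -1.35 for the class II list, -0.92 for the interferon list and -0.25 for the oviduct list. The covariate is the mean of the oviduct list itself, so the small median of that list follows from the fit. It was also higher in each early-life sample than in each peripubertal sample. This fit therefore cannot separate oviduct marker level from diet window. The part of oviduct tissue in the rises of Wfdc2, Wfdc15b, Cbs and Pdzk1ip1 was not tested.

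**Figure D3:**
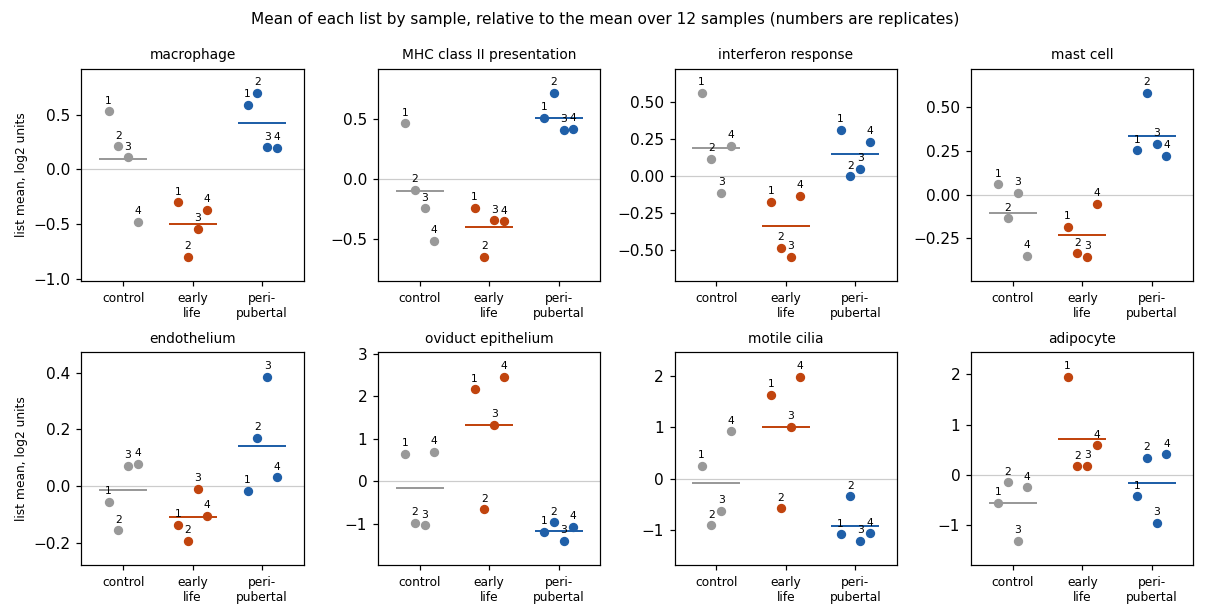
Mean log2 value of 8 lists in each sample (vertical axes, relative to the mean over 12 samples), by diet group, with replicate numbers at the points and horizontal bars for group means. Macrophage, MHC class II, interferon and mast cell means are lower in each early-life sample than in each peripubertal sample. Oviduct means are higher in each early-life sample than in each peripubertal sample and range from -0.65 to 2.46 within the early-life group.

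For the genes of ovarian hormone action the comparison passed none. The vitamin D receptor gene Vdr measured 8.68, 8.06, 8.46 and 8.59 in the early-life samples and 8.72, 8.11, 8.40 and 8.96 in the peripubertal samples, a difference of -0.10 ± 0.26 (adjusted p = 0.857, limma). These values overlapped throughout. Cyp27b1, the enzyme that makes the active hormone, stood at -0.06 ± 0.07 (adjusted p = 0.612, limma), and Cyp24a1, which degrades it, was not kept by the filter on dim probes. Cyp27b1 was itself near background, well above it in only 1 of 4 peripubertal and 2 of 4 control samples. Its small difference therefore does not show an unchanged level. Of 14 vitamin D genes measured, 0 passed and 4 had an unadjusted p under 0.05 in limma (median -0.15), as did 4452 of all 18597 genes. Cyp27a1, a mitochondrial hydroxylase of sterols and vitamin D, was closest, at 7.06, 7.02, 7.01 and 6.88 against 7.56, 7.66, 7.37 and 7.27 (difference -0.47 ± 0.11, adjusted p = 0.0566, limma), with no overlap. Calb1, a calcium-binding protein under vitamin D control in other tissues, differed by 2.89 ± 1.00 (adjusted p = 0.132, limma), and its early-life values of 11.11, 7.44, 9.71 and 11.40 were lowest in the same replicate as the oviduct markers.

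Of 17 steroidogenesis genes, 0 passed in limma, 4 had an unadjusted p under 0.05 (as did 4452 of all 18597 genes) and 14 differences were negative, with a list median of -0.51. Star, the cholesterol carrier into mitochondria, differed by -1.24 ± 1.18, Cyp11a1, which makes pregnenolone, by -0.54 ± 0.33, Cyp17a1, the androgen-forming enzyme, by -0.18 ± 0.95, and aromatase (Cyp19a1) by -0.67 ± 0.96. Their adjusted p lay between 0.348 and 0.931 in limma, and the SE near 1 for 3 of them leaves more than 2-fold differences within their error. Nr5a1, the nuclear receptor SF-1 that drives steroidogenic genes, had no overlap between groups and missed the threshold at -0.67 ± 0.16 (adjusted p = 0.06, limma), with early-life replicate 3 absent. Akr1c18, the progesterone-degrading enzyme of regressing corpora lutea, measured 11.45, 8.61, 12.64 and 12.33 against 14.10, 15.52 and 16.40, with no value in peripubertal replicate 1, a difference of -4.10 ± 1.1 (adjusted p = 0.0938, limma). The groups did not overlap for this gene either. The gonadotropin receptors Fshr and Lhcgr stood at 0.29 ± 0.33 and 0.48 ± 0.60, the oestrogen receptors Esr1 and Esr2 at 0.69 ± 0.48 and 0.59 ± 0.22, and the progesterone receptor Pgr at 0.57 ± 0.44. The follicle hormone genes Amh and Inha and the oocyte factor gene Gdf9 stood at 0.17 ± 0.26, 0.05 ± 0.18 and 0.01 ± 0.30. Adjusted p for these 8 genes lay between 0.154 and 0.994 in limma, and Gdf9 had values in only 2 of the 4 peripubertal samples. Pgr was well above background in only 1 of the 4 peripubertal samples. In each of Fshr, Pgr, Inha and Cyp19a1, 1 of the 8 values was missing, and 2 were in Star and Cyp17a1. A p above the threshold does not show that levels were equal.

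On 5 lists of ovarian cell types 0 genes passed in limma. The medians were 0.17 for 19 oocyte genes, 0.06 for 16 granulosa cell genes, -0.56 for 11 theca cell genes, -0.34 for 14 luteal cell genes and 0.34 for 14 surface epithelium genes, of which 0, 2, 5, 2 and 3 had an unadjusted p under 0.05. Over all 18597 genes tested, 4452 had such a p. Differences were negative in 10 of 11 theca genes and in 12 of 14 smooth muscle genes, of which 0 passed and 5 had an unadjusted p under 0.05 (median -0.56). Over the 47 lists, 15 held at least 1 passing gene, and of the 689 listed genes tested 28 fell and 3 rose. Of all genes tested, 2.13% fell and 0.565% rose. Defining genes of the ovary were measured in every early-life sample, with the inhibin subunit gene Inha at 16.70, 17.14, 16.98 and 16.87 and Hsd3b1, a steroid dehydrogenase, at 16.60, 16.88, 17.03 and 17.00 in the early-life samples.

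**Figure D4:**
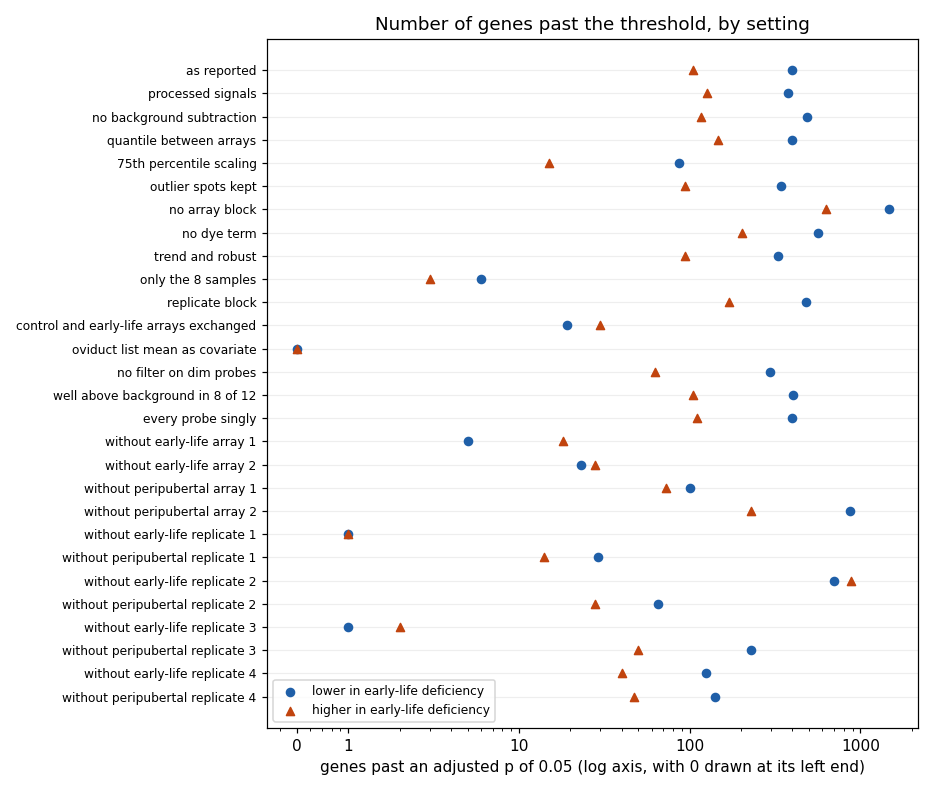
Number of genes past an adjusted p of 0.05 (horizontal log axis) for the reported fit and each other setting, split into genes lower (circles) and higher (triangles) after early-life deficiency. The reported fit gives 397 and 105; both counts are 1 without early-life replicate 1, they are 705 and 883 without early-life replicate 2, and both are 0 with the oviduct mean as a covariate.

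Where several probes measured one passing gene, they can be compared. Of the 502 genes, 85 had other probes, 101 in all, and 85 of these probes differed in the same direction as the reported one, 56 of them with an unadjusted p under 0.05. For genes that fell these were 69 and 47 of 79 other probes, and for genes that rose 16 and 9 of 22. The reported probes lie, in build mm9, at chr4:136452409-136452468 for C1qa, chr17:34421285-34421344 for H2-Aa, chr17:57620350-57620409 for Adgre1, chr2:164393947-164394006 for Wfdc2, chr6:28838378-28838437 for Snd1, chr11:79340124-79340183 for Evi2a and chr7:5432165-5432224 for Vmn2r28. Whether these probes lie in coding exons or untranslated regions was not analysed here.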

How the data were processed

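Ovary RNA of 12 mice was measured on 6 two-colour Agilent arrays, read with Agilent Feature Extraction (11.0.1.1, per the file headers). The deposited scanner files give mean signal and median local background as intensity, and a processed signal, also an intensity, that is background-subtracted and dye-normalized within the array per the file headers. The authors' deposited value table (log2, each column's median at 0) served only to check sample naming. With limma 3.58.1 and statmod 1.5.0 in R 4.3.3, normexp (offset 50) corrected the background, loess normalized each array and Aquantile the set, and each channel then gave 1 sample's log2 values. Spots set aside as outliers were left out (3.15% of values). A probe was kept if 4 or more of the 12 samples lay well above background and each group had 2 or more values, and the brightest stood for each of 18597 genes (15379 names in RefSeq). One limma model held the 3 groups and dye, with the array as random block (correlation 0.288). The model was tested on simulated data. A group with no sample above background gives a bound on the fold, against the higher of each sample's background level and its own signal. The number of arrays limits the precision. A p-value sets a group difference against the spread between samples within the groups. Each group lay on 1 slide, so this spread holds no variation between slides.

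The text names the 15 passing genes with the largest rise and the 15 with the largest fall among genes in RefSeq whose groups do not overlap, the passing genes of the lists (1 is not reported here), and a fixed set of vitamin D and ovarian genes. Members and lists were chosen with earlier results of these data known. Alternatives changed the signal used, the background step, the scaling, the filters, the model's terms and the samples.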

Additional observations from a re-analysis of the deposited data

Results flagged for a closer look

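In groups of 4, a sample was marked when its gap to the nearest other sample as a share of the group's range exceeded Dixon's critical value. Chance marks about 1 in 20 groups, and 10 of 280 groups examined were marked. In the peripubertal group these were Wfdc2 in replicate 3 (8.34, others 8.77 to 8.85), Islr2 in replicate 4 (10.41, others 9.06 to 9.28), Ddx58 in replicate 1 (11.49, others 11.20 to 11.25) and H2-Aa in replicate 4 (10.96, others 11.28 to 11.33). In the early-life group, replicate 2 stood apart in Islr2 (7.62, others 7.34 to 7.36), in the LH receptor gene Lhcgr (13.05, others 11.78 to 11.99) and in H2-Ab1 (12.76, others 13.14). Peripubertal replicate 2 stood apart in the list means of DNA repair (-0.09), motile cilia (-0.35) and lymphocyte markers (0.16).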

How the results depend on the processing

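Against 502 genes in the reported fit, 102 passed with scaling to the 75th percentile, 2103 when arrays were not a block, 771 when dye was left out of the model, 9 on the 8 samples alone, 49 with control and early-life arrays exchanged (28 of them among the 502) and 0 with the oviduct mean as covariate (2763 at an unadjusted p under 0.05, limma). Fewer samples or an added term change what the model estimates; otherwise the cause was not tested. Single samples left out gave 2 to 1588 genes. Single arrays left out, an alternative added after seeing the data, gave 23 and 51 for early-life arrays 1 and 2, and 173 and 1094 for peripubertal arrays 1 and 2. Processed signals, no background subtraction, quantile scaling, kept outlier spots, a trended robust fit, no dim filter, a stricter one and every probe singly stayed between 360 and 602.

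The replicate number as a block (replicate block) gave 649 genes, 408 of them among the 502. Deviations of same-numbered samples correlated at -0.03, -0.28, 0.07 and -0.02, so the numbers show no pairing.

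Of the passing genes named, 1 turned its sign: Rgs6 (-0.12, exchanged arrays). Among genes that missed the threshold, the exchanged arrays turned Isg15 (0.19), Adipoq (-0.95), Cyp27b1 (0.022), Star (0.91), Fshr (-0.034) and Gdf9 (-0.24). The oviduct covariate turned Cd14 (-0.75), Ovgp1 (-0.25), Adipoq (-0.29), Esr1 (-0.55) and Pgr (-0.25). Ovgp1 is itself a member of the list that makes this covariate. The 75th percentile turned Inha (-0.022) and Gdf9 (-0.02), processed signals Inha (-0.001), and the replicate block Gdf9 (-0.27). Single samples left out turned Vdr (range -0.232 to 0.097), Cyp17a1 (-1.048 to 0.678), Cyp19a1 (-1.526 to 0.019), Fshr (-0.031 to 0.486), Amh (-0.009 to 0.316), Inha (-0.085 to 0.218) and Gdf9 (-0.101 to 0.188). Of 940 list medians under the alternatives, 879 moved by less than the spread between samples and 61 by more. Genes near background have only bounds.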

Other observations

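Ltf, which encodes lactoferrin, a secreted iron-binding protein of epithelia and neutrophil granules, stood on the granulocyte list, of whose 7 measured genes 0 passed and 1 had an unadjusted p under 0.05 in limma. Its values were 15.90, 11.29, 14.22 and 16.28 in the early-life samples and 8.88, 9.89, 8.55 and 8.44 in the peripubertal samples, a difference of 5.49 ± 1.61 (adjusted p = 0.0905, limma). The control samples were at 12.96, 11.03, 8.61 and 13.39. Differences were negative in 15 of 17 lysosome genes and in 18 of 22 extracellular matrix genes, with list medians of -0.33 and -0.34. On these lists 0 passed in limma, while 10 and 5 genes had an unadjusted p under 0.05, as did 4452 of all 18597 genes tested. The 23 ribosomal protein genes (median 0.07), the 23 oxidative phosphorylation genes (-0.08) and the 17 proteasome genes (-0.05) had 0 passing in limma, with 2, 2 and 3 genes at an unadjusted p under 0.05.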
